A study of Mus musculus with 6 samples.

Results

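The 4 Hox gene clusters were examined in myonuclei of mouse hindlimb muscle. Members were the rows of the start-site window table whose gene symbol was Hoxa, Hoxb, Hoxc or Hoxd followed by a number, ordered by cluster and by paralogue group, the number that Hox genes of different clusters share when they descend from the same ancestral gene. Of 49366 rows, 36 were Hox genes, with 9 in cluster A, 10 in cluster B, 9 in cluster C and 8 in cluster D. The annotation holds 39 Hox genes. Those with no row have no level or test here and enter only the count of genes with a peak.

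Chromatin accessibility was read by ATAC-seq, where the transposase inserts sequencing tags into DNA that it can reach, in nuclei sorted from muscle for PCM1, a protein at the surface of fibre nuclei. Male C57BL/6J mice received AAV6:Yap-shRNA, a viral vector encoding a short hairpin RNA against Yap, or the control AAV6:LacZ-shRNA, which targets a bacterial gene. Vectors were injected into the gastrocnemius and tibialis anterior muscles of opposite legs at 8 weeks of age, and muscles were taken 28 days later. Each group had 3 samples. Every mouse thus carried both vectors, in both groups all nuclei came from AAV6-injected muscle, and the control muscle was not untreated. Each sample pooled 4 gastrocnemius and 4 tibialis anterior muscles, so no value belongs to 1 animal, and the labels do not say which samples came from the same mice. The Yap-shRNA sequence had been cloned into an AAV6 plasmid with a CMV promoter, which is not restricted to muscle fibres, and the promoter that drives the hairpin is not given in the sources used here.

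Hox genes encode homeodomain transcription factors that give cells their address along the head-to-tail axis and, in the limb, from shoulder or hip to digit. Genes at the group 1 end of a cluster act towards the head, and those at the group 13 end act towards the tail and the digits. Polycomb proteins keep Hox genes closed outside their domain, Trithorax proteins keep them open inside it, and limb muscle and its connective tissue keep parts of this pattern in the adult.

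A window joins the stretches of 1 kb on both sides of all annotated starts of a gene. Its level is given in CPM, counts scaled to the sample's total over all windows, per kb of window. The totals were adjusted by TMM (trimmed mean of M values). CPM per kb is a scale of accessibility and not of transcription. Where windows of neighbouring genes overlap, the shared bases appear to have given no counts, which is inferred from the counts. A gene that shares much of its window would then be listed too low. Of the 36 Hox windows, 13 shared bases, against 10344 of all 49366 windows (21.0%), and comparisons between genes below rest on the 23 that share none. Peaks were regions that the authors had called in at least 2 samples, and a peak's level is CPM per kb of peak. For peaks the totals were counts over all peaks, so levels of windows and of peaks are on different scales. A Hox cluster was taken from its outermost Hox gene ends with 10 kb on each side.

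Counts in windows totalled 3326803 to 10319467 per sample and counts in peaks 2588520 to 6871176, with LacZ-shRNA 1 and 2 the shallowest libraries. The 36 Hox windows held 2471 to 8100 counts per sample and the Hox cluster peaks 1040 to 3372. The label of muscle fibre nuclei was checked on 10 skeletal fibre genes. Their windows had a median level of 24.5 CPM per kb, at the 97.99th percentile of unshared protein-coding windows, from Myh1 at 4.10 to Atp2a1 at 61.0. Median percentiles were 49.7 for satellite cell genes, 19.9 for fibroblast genes, 37.2 for endothelial genes, 36.3 for leukocyte genes and 51.6 for smooth muscle and pericyte genes. Single genes departed from these medians. Myh1 lay at the 23.1st percentile, Cdh15 (satellite cell) at the 96.9th, Cd68 (leukocyte) at the 77.4th and Col1a1 (fibroblast) at the 70.6th. Some marker windows, such as that of Myh1 with 49.7% its own, share bases and may be listed too low. Between vectors 0 of these 38 marker genes reached an adjusted p of 0.05 (edgeR). At an unadjusted p under 0.05 Kdr (endothelial) and Calcr (satellite cell) were lower in Yap-shRNA, and Col1a1 and Col3a1 (fibroblast) and Csf1r (leukocyte) were higher, that is 2 and 3 of 38, where the shares of all windows were 3.01% and 1.9%. Mean levels of the 6 endothelial genes were 5.60 to 5.79 CPM per kb in LacZ-shRNA and 5.06 to 5.36 in Yap-shRNA, with 3 genes lower, 3 higher and a median log2 fold change of -0.04. Kdr alone held 8.37 to 10.1 and 5.50 to 6.51. Mean levels of the 7 fibroblast genes were 4.15 to 4.47 in LacZ-shRNA and 4.39 to 5.05 in Yap-shRNA, with 3 lower, among them Pdgfra and Dcn with log2 fold changes of -0.25 and -0.26, and 4 higher. Their part in the results below was not tested. The window of Yap1, the targeted gene, held 1.77, 2.44 and 2.06 CPM per kb in LacZ-shRNA and 2.14, 2.41 and 1.76 in Yap-shRNA, and the groups overlapped. Since the hairpin targets the transcript, accessibility of this window is no measure of the knockdown.

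Cluster A held 10 peaks, cluster C 6, cluster D 3 and cluster B 0. Per 100 kb this was 7.98 peaks in cluster A, 4.42 in cluster C and 2.57 in cluster D, against 1.32 over the assembled chromosomes. Cluster B was the longest region at 193.9 kb, and its nearest peaks lay 42.7 kb before and 33.1 kb after it. The counts of peaks were the same without the 10 kb flank.

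**Figure D1:**
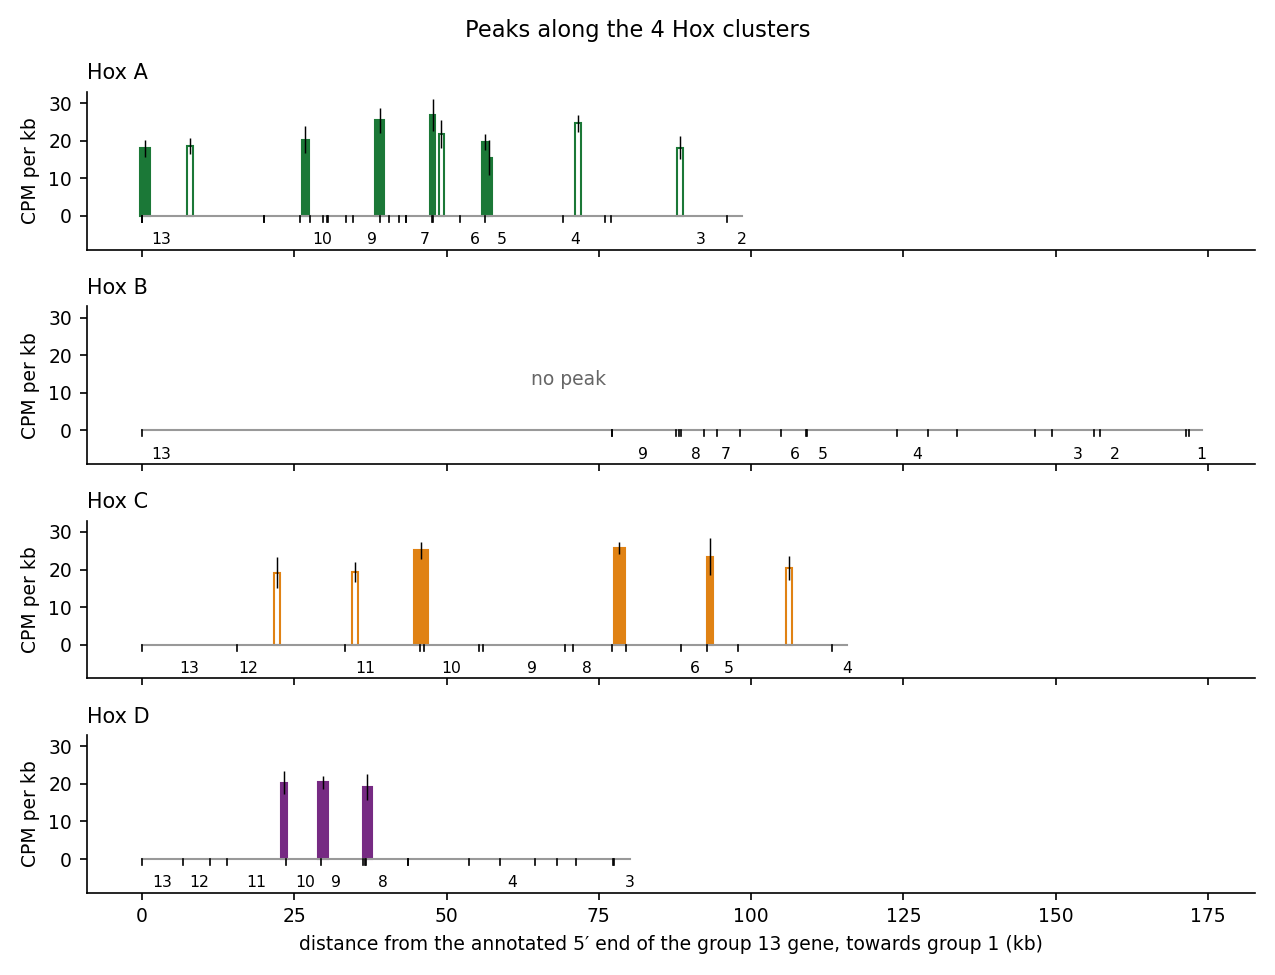
Mean level of each peak (CPM per kb of peak, 6 samples, error bars SD) against its distance from the annotated 5′ end of the group 13 gene, in kb. Ticks mark annotated transcript starts of the Hox genes with a row, numbers stand at the 3′ end of each gene by paralogue group, filled bars are peaks within 1 kb of a Hox start and open bars are other peaks. Clusters A, C and D carry 10, 6 and 3 peaks and cluster B carries 0.

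Of the 19 peaks, 12 lay within 1 kb of a Hox transcript start and 7 lay further away. Among the 39 annotated Hox genes, 11 (28.2%) had a peak in their window, and these 11 were 30.6% of the 36 with a row. The share was 51.8% of 20540 protein-coding genes and 26.3% of all 49366 genes with a row. In cluster A the Hox genes with a peak were Hoxa3, Hoxa5, Hoxa7, Hoxa10 and Hoxa13. In cluster C they were Hoxc5, Hoxc6 and Hoxc10, and in cluster D they were Hoxd8, Hoxd9 and Hoxd10. All 3 genes of paralogue group 10, which pattern the lumbosacral skeleton and the upper hindlimb, had a peak, and among the genes with a row 0 of groups 1, 2, 4, 11 and 12 had one. The Hoxc10 peak also covered a distant start of Hoxc5, and the Hoxa3 peak covered the 2 most distant of its 4 annotated starts, in exons shared with Gm28308 and Hoxaas3.

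The highest peak per kb in the clusters was this Hoxa3 peak (chr6:52212886-52213400, GRCm38). It held 28.2, 25.6 and 31.2 CPM per kb in the LacZ-shRNA samples and 32.1, 22.1 and 22.2 in the Yap-shRNA samples. Its highest sample belonged to Yap-shRNA and the groups overlapped. The Hoxa7 peak (chr6:52221088-52222580), over exons of a gene that acts in the trunk, held 25.1, 23.9 and 32.2 CPM per kb in LacZ-shRNA and 24.3, 23.8 and 23.3 in Yap-shRNA. One control sample, LacZ-shRNA 3, stood above the other 5.

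In cluster C the 2 highest peaks covered exons of Hoxc6 and Hoxc10. The Hoxc6 peak (chr15:102998533-103000370) held 24.0, 27.7 and 27.5 CPM per kb in LacZ-shRNA and 24.7, 24.8 and 25.7 in Yap-shRNA, with the Yap-shRNA samples inside the range of the controls. The Hoxc10 peak (chr15:102965698-102968093), the widest of all at 2396 bases, held 21.4, 26.9 and 27.2 CPM per kb in LacZ-shRNA and 25.7, 25.5 and 23.8 in Yap-shRNA. Here too the Yap-shRNA samples lay inside the control range. Hoxc10 is known as a gene of the hindlimb.

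In cluster D the Hoxd9 peak (chr2:74697258-74698890) held 18.9, 20.5 and 22.6 CPM per kb in LacZ-shRNA and 20.9, 21.7 and 17.6 in Yap-shRNA. The Hoxd10 peak (chr2:74691282-74691999) held 25.9, 16.6 and 19.7 in LacZ-shRNA and 19.4, 19.7 and 20.3 in Yap-shRNA. In both peaks the samples of the groups were interleaved. The 3 peaks of cluster D stood side by side over exons of Hoxd10, Hoxd9 and Hoxd8, with levels from 19.1 to 20.4 CPM per kb. Levels ranged from 15.5 to 26.9 in cluster A and from 19.2 to 25.7 in cluster C. Of the 18 neighbouring pairs in the order of all 19 peaks, 17 differed by less than the smaller of their SDs over the 6 samples. Neighbours in this order are thus not resolved, and peaks far apart in it were not compared. Among all peaks the Hox peaks ranged from the 34.5th to the 77.6th percentile with a median at the 51.4th. The median was 20.4 CPM per kb for peaks at Hox starts and 19.3 for those further away.

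Sequences of the sites that hold motifs of interest are shown because Yap binds DNA through TEAD factors, CTCF sets domain borders inside Hox clusters, and Hox proteins of the group 9 to 13 end read a motif of their own. Exact matches were searched on both strands. The TEAD motif ACATTCC occurred in 4 of the 19 Hox cluster peaks, against 8.96% of all peaks. Within the central 500 bases, which removes the difference in width, it occurred in 2 of 19 against 3.87%. In capitals below is the match, read 5′ to 3′ on the strand given, with 20 bases on each side.
peak over a Hoxa4 exon, chr6:52189698-52189744 (+ strand): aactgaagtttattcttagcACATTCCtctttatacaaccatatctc
peak beside the distant Hoxa3 start, chr6:52211855-52211901 (+ strand): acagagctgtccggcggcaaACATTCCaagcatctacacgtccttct
Hoxc10 peak, chr15:102966925-102966971 (- strand): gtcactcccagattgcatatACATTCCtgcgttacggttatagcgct
Hoxd10 peak, chr2:74691893-74691939 (- strand): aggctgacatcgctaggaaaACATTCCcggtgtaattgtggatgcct

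The log2 fold changes of these 4 peaks in Yap-shRNA against LacZ-shRNA ran from -0.15 to -0.01, and 0 passed the test. The 4 sites lay in all 3 clusters that hold peaks.

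The CTCF pattern (CCA, any 2 bases, AG, any 2 bases, GGC), which is looser than the full site, occurred in 2 of 19 Hox peaks against 8.09% of all peaks, and in 1 of 19 against 4.27% within the central 500 bases. Both matches lay in cluster A, on opposite strands.
peak over a Hoxa4 exon, chr6:52189588-52189639 (+ strand): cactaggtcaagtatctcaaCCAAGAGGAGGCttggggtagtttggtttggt
Hoxa7 peak, chr6:52221789-52221840 (- strand): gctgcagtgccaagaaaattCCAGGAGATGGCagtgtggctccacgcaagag

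That Hoxa4 peak held both a TEAD and a CTCF match, and had the lowest CpG content of the 19 at 7.16 CpG per kb. The string TCGTAAA, read by Hox proteins of the digit end, occurred in 3 of 19 Hox peaks against 1.46% of all peaks, and in 1 of 19 against 0.561% within the central 500 bases.
Hoxa5 peak, chr6:52204504-52204550 (+ strand): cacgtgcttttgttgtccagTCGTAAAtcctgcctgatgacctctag
Hoxa10 peak, chr6:52233457-52233503 (+ strand): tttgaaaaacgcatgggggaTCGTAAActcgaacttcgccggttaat
Hoxd8 peak, chr2:74705963-74706009 (- strand): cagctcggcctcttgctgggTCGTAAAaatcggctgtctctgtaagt

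None of the matches of these motifs or of CAATAAA overlapped another. The related string CAATAAA occurred in 3 of 19 Hox peaks against 10.9% of all peaks, and in 1 of 19 against 4.4% within the central 500 bases. Among motifs of muscle factors, the MEF2 pattern (CTA, any 4 bases, TAG) occurred in 0 of 19 against 12.3%, and the E-box CAGCTG, bound by MyoD family factors, in 7 of 19 against 40.3%. Within the central 500 bases these were 0 of 19 against 5.92% and 6 of 19 (31.6%) against 25.5%, so that for the E-box the share of Hox peaks (36.8% over whole peaks) lay below that of all peaks by one measure and above it by the other. The Hox cofactor strings were TGACAG of Meis, in 5 of 19 against 46.5%, and TGATNNAT of Pbx with Hox, in 4 of 19 against 25.7%, with 2 of 19 against 28% and 2 of 19 against 13% within the central 500 bases. These are counts of letters in 19 regions and say nothing of binding.

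Windows that share no bases were lower in cluster B than in the other clusters. Cluster levels are length-weighted means, that is summed CPM over summed kb of the windows that share no bases. Cluster A stood at 9.16 ± 0.95 CPM per kb, cluster D at 8.86 ± 0.81, cluster C at 8.39 ± 0.71 and cluster B at 6.12 ± 0.45 (SD over the 6 samples of both groups). The median of unshared protein-coding windows was 6.45 ± 0.15, that of windows with a peak 9.38 and that of windows without one 4.74. Olfactory receptor genes, which are closed in most tissues, had a median of 3.17. In each of the 6 samples clusters A, C and D stood above cluster B. The ratio to cluster B was 1.499 for cluster A (1.34 to 1.69 over samples), 1.37 for cluster C (1.22 to 1.501) and 1.45 for cluster D (1.39 to 1.55). Cluster D differed from clusters A and C by less than the smaller of their SDs, and clusters A and C differed by more than the smaller and less than the larger. Over all windows, those with shared bases included, the ratios were 1.16, 1.36 and 0.966, and cluster D then lay below cluster B in 5 of 6 samples.

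**Figure D2:**
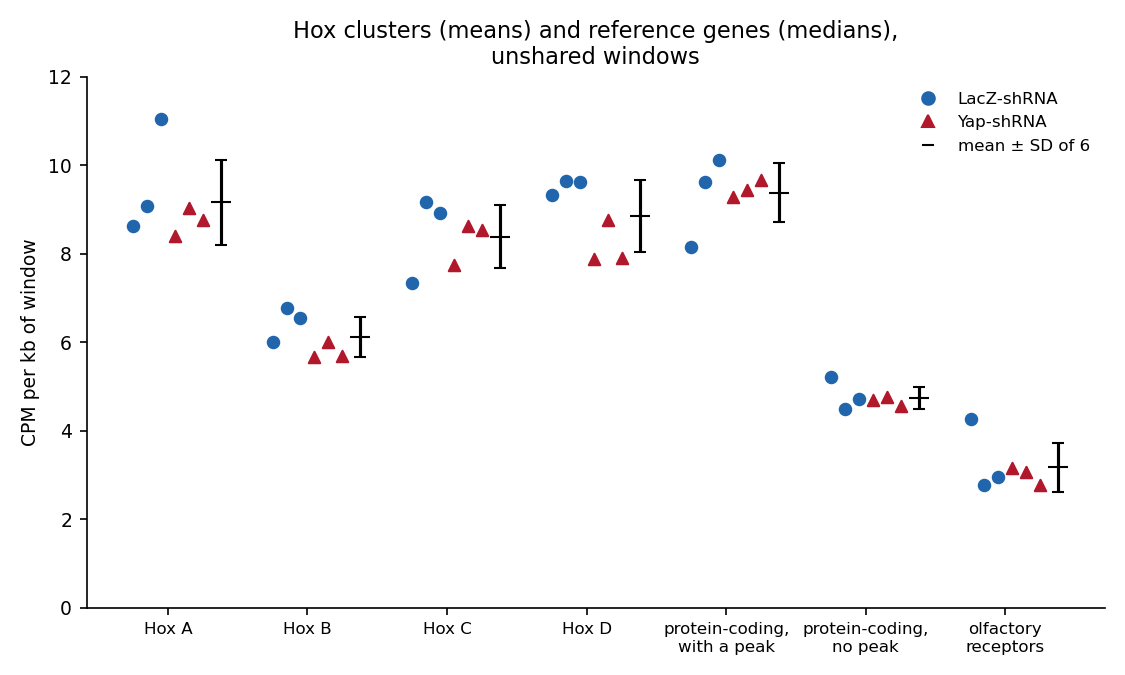
Level in each sample (CPM per kb of window), with mean ± SD of the 6 samples in black. Hox clusters are length-weighted means over unshared windows (summed CPM over summed kb). Unshared protein-coding windows with and without a peak and olfactory receptor windows are medians. Cluster B (6.12) lies below clusters A, C and D (8.39 to 9.16) and above protein-coding windows without a peak (4.74).

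In cluster A the highest listed window was that of Hoxa4, which was also the highest listed of all 36. Scaled to unshared bases, however, the shared windows of Hoxd9, Hoxa13 and Hoxc10 stood above it at 15.9, 15.4 and 14.1 CPM per kb. These 3 values rest on 7.05%, 16.9% and 32.3% of their windows. Hoxa4 held 10.7, 12.97 and 12.5 CPM per kb in LacZ-shRNA and 9.77, 10.8 and 10.5 in Yap-shRNA. Its window contained no called peak, although a peak lay 1981 bases from its start, and its level was at the 84.6th percentile of unshared protein-coding windows. Hoxa5, known for its part in lung and cervical patterning, held 10.8, 8.49 and 11.2 CPM per kb in LacZ-shRNA and 9.57, 10.7 and 9.67 in Yap-shRNA, and the groups overlapped in both genes. The lowest listed window was that of Hoxa3, with 1.86, 1.47 and 1.72 CPM per kb in LacZ-shRNA and 1.30, 1.60 and 1.84 in Yap-shRNA, but only 26.2% of its bases were its own. Mean levels of the other unshared windows were 7.24 for Hoxa6, 9.52 for Hoxa7 and 8.39 for Hoxa10. Of the windows that share bases, Hoxa2 was listed at 2.27, Hoxa9 at 4.27 and Hoxa13 at 2.60.

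Cluster B had its highest listed windows at its 2 ends, although the shared window of Hoxb4 stood at 8.46 CPM per kb when scaled to unshared bases. Hoxb1, a gene of the hindbrain, held 8.01, 8.95 and 8.13 CPM per kb in LacZ-shRNA and 7.596, 8.76 and 7.35 in Yap-shRNA. Hoxb13, a gene of the tail and prostate, held 7.41, 8.17 and 8.65 in LacZ-shRNA and 7.07, 7.82 and 7.47 in Yap-shRNA. The samples of the groups overlapped in both. The lowest listed window was that of Hoxb5, with 3.41, 4.27 and 4.55 CPM per kb in LacZ-shRNA and 3.46, 4.41 and 4.37 in Yap-shRNA and 80.2% of its bases its own. Between these ends the unshared windows of Hoxb2, Hoxb6, Hoxb7, Hoxb8 and Hoxb9 averaged 5.20, 5.57, 5.89, 4.86 and 6.66. The shared windows of Hoxb3 and Hoxb4 were listed at 4.21 and 4.66.

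In cluster C the highest listed windows were those of Hoxc11 and Hoxc6. Hoxc11, a hindlimb gene, held 10.04, 10.4 and 12.3 CPM per kb in LacZ-shRNA and 9.62, 10.1 and 10.5 in Yap-shRNA, with no called peak in its window and one 1283 bases from its start. Hoxc6 held 8.35, 11.8 and 10.4 in LacZ-shRNA and 9.33, 10.3 and 10.3 in Yap-shRNA. In both genes the Yap-shRNA samples overlapped the controls. The lowest was Hoxc5, with 2.98, 3.20 and 3.25 CPM per kb in LacZ-shRNA and 3.87, 3.16 and 3.30 in Yap-shRNA and 43.5% of its bases its own. The other unshared windows averaged 7.05 for Hoxc4, 6.26 for Hoxc8, 9.44 for Hoxc9, 6.402 for Hoxc12 and 7.99 for Hoxc13, and the shared window of Hoxc10 was listed at 4.57.

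In cluster D, Hoxd8 held 11.5, 11.5 and 11.7 CPM per kb in LacZ-shRNA and 8.71, 10.4 and 9.13 in Yap-shRNA. Hoxd10, a gene of the upper limb segments and of motor neurons to the hindlimb, held 11.5, 10.4 and 10.02 in LacZ-shRNA and 9.42, 9.26 and 9.67 in Yap-shRNA. In these 2 genes all controls lay above all Yap-shRNA samples. The lowest was Hoxd9, with 0.452, 1.92 and 1.48 CPM per kb in LacZ-shRNA and 0.865, 1.54 and 0.463 in Yap-shRNA. Only 7.05% of the Hoxd9 window was its own, with as few as 5 counts in a sample, so its level is not resolved. Hoxd12 and Hoxd13, which shape the digits, averaged 7.20 and 7.28, and the shared windows of Hoxd3, Hoxd4 and Hoxd11 were listed at 5.11, 2.14 and 4.49.

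**Figure D3:**
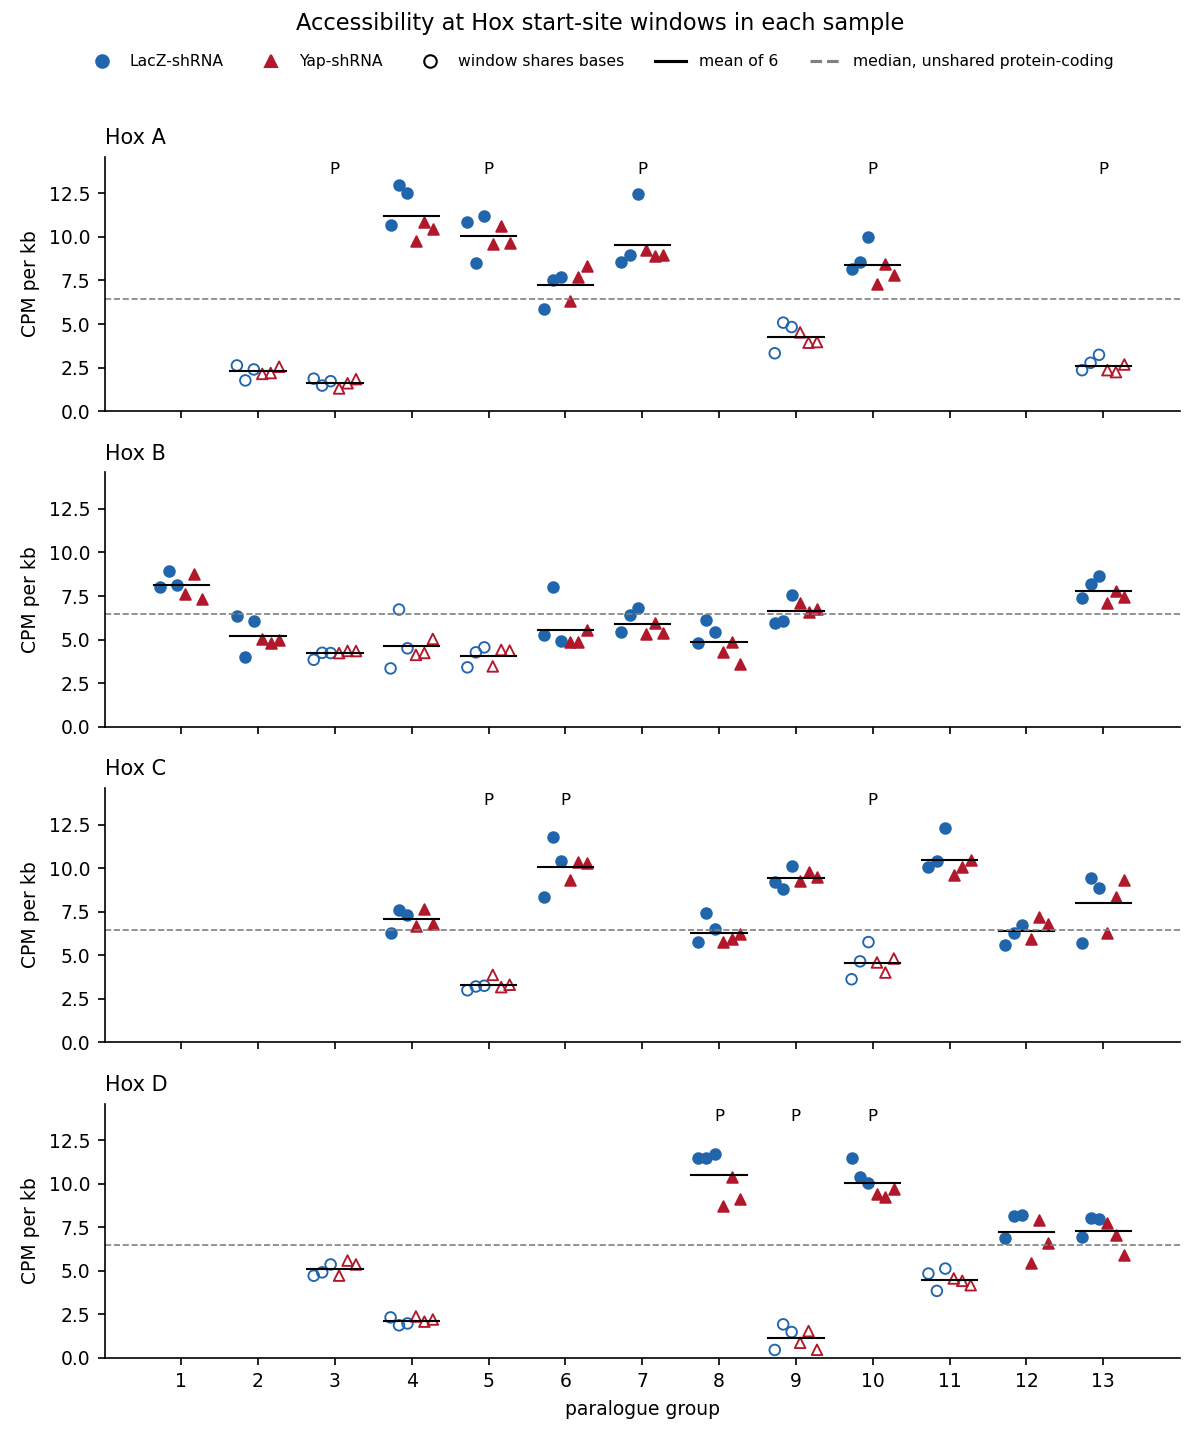
Level of each Hox window (CPM per kb of window) in the 3 LacZ-shRNA (circles) and 3 Yap-shRNA (triangles) samples, by cluster and paralogue group, with black bars at the mean of 6. Open symbols are windows that share bases with another gene, P marks a window that holds a peak, and the dashed line is the median of unshared protein-coding windows (6.45). The highest mean is that of Hoxa4 (11.2) and unshared cluster B windows lie between 4.86 and 8.13.

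Along the order of the 23 unshared windows, from 11.2 for Hoxa4 to 4.86 for Hoxb8, 21 of 22 neighbouring pairs differed by less than the smaller of their SDs. The exception was the step from Hoxc9 (9.44) to Hoxa10 (8.39). The 6 unshared windows with a peak ranged from 8.39 to 10.5 CPM per kb, the 10 without one in clusters A, C and D from 6.26 to 11.2, and the 7 of cluster B from 4.86 to 8.13. Hox windows are rich in CpG dinucleotides, with a median of 41.5 per kb against 21.2 in protein-coding windows. Over the 23 windows, which share the same libraries, Spearman's rho between level and CpG content was 0.48, against 0.72 over 14638 unshared protein-coding windows, and rho between level and paralogue number was 0.02. CpG content ranged from 34.0 to 86.5 per kb in cluster A, from 19.95 to 62.4 in cluster B, from 20.7 to 66.97 in cluster C and from 43.0 to 91.4 in cluster D. The medians were 49.3, 35.5, 43.95 and 65.0, lowest in cluster B. Whether CpG content accounts for the lower level of cluster B was not tested.

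**Figure D4:**
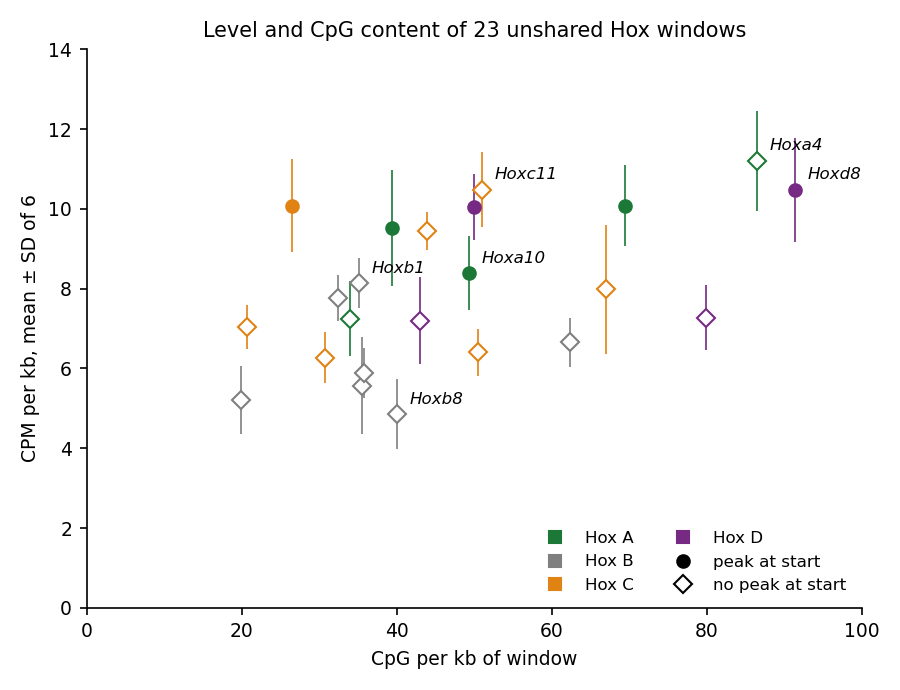
Mean level (CPM per kb, error bars SD over 6 samples) of the 23 unshared Hox windows against CpG dinucleotides per kb of window, coloured by cluster, with filled circles for windows that hold a peak and open diamonds for the others. Hoxd8 has the most CpG (91.4 per kb) and Hoxb8 with 40.1 per kb has the lowest level (4.86).

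Of the group 8 genes, Hoxd8 stood near the top and Hoxb8 at the bottom of this order, and both were among the 5 windows with the smallest unadjusted p below, so their promoters are shown. These are 300 bases around the RefSeq start (build GRCm38.p6), read 5′ to 3′ on the + strand, with CG dinucleotides in capitals.
Hoxd8, chr2:74704365-74704664: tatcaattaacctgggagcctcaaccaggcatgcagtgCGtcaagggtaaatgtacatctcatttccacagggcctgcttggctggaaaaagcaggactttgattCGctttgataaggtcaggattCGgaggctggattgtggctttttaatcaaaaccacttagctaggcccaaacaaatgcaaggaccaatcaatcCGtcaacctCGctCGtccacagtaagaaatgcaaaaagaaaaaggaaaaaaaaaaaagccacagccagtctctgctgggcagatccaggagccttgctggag
Hoxb8, chr11:96281655-96281954: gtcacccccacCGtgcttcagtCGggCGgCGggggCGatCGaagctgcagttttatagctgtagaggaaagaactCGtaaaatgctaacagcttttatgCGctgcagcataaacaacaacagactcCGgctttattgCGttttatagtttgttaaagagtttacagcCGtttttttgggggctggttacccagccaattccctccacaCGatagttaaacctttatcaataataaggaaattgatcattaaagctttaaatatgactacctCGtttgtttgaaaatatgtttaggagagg

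These 300 bases held 6 CG in Hoxd8 and 13 in Hoxb8, with a median of 7 over 32851 RefSeq promoters, so the high CpG content of the Hoxd8 window lay outside the stretch next to this start. The Hoxd8 peak began inside this stretch and ran on into the gene.

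The comparison of vectors asked whether accessibility of the Hox genes changed after Yap knockdown. Fold changes of Hox windows and peaks lay mostly below 0, and none passed the test. In simulated data the test recovered 9.5% of windows and 23% of peaks given a log2 change of 0.5. The lack of calls below therefore does not show that changes of this size were absent. In edgeR's quasi-likelihood test 0 of 36 Hox windows passed an adjusted p of 0.05, where 0.0223% of all windows did, and the lowest adjusted p was 0.946. At an unadjusted p under 0.05 there was 1 lower Hox window, where the share of all windows was 3.01%, and 0 higher, where it was 1.9%. Groups did not overlap in 2 lower Hox windows, against a share of 4.79% of all windows, and in 0 higher ones, against 5.31%. DESeq2 gave an adjusted p to 12 of the 36 and called 0 of these 12, and at an unadjusted p under 0.05 it had 0 of 36. Of the 36, 26 were lower and 10 higher, where 26007 of all 49366 windows were lower. The median log2 fold change of the Hox windows was -0.10, with a range from -0.34 to 0.13, beside -0.01 over all windows. The median moved to -0.02 without LacZ-shRNA 3 and to -0.16 without LacZ-shRNA 1, which are the controls whose absence moved it most.

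**Figure D5:**
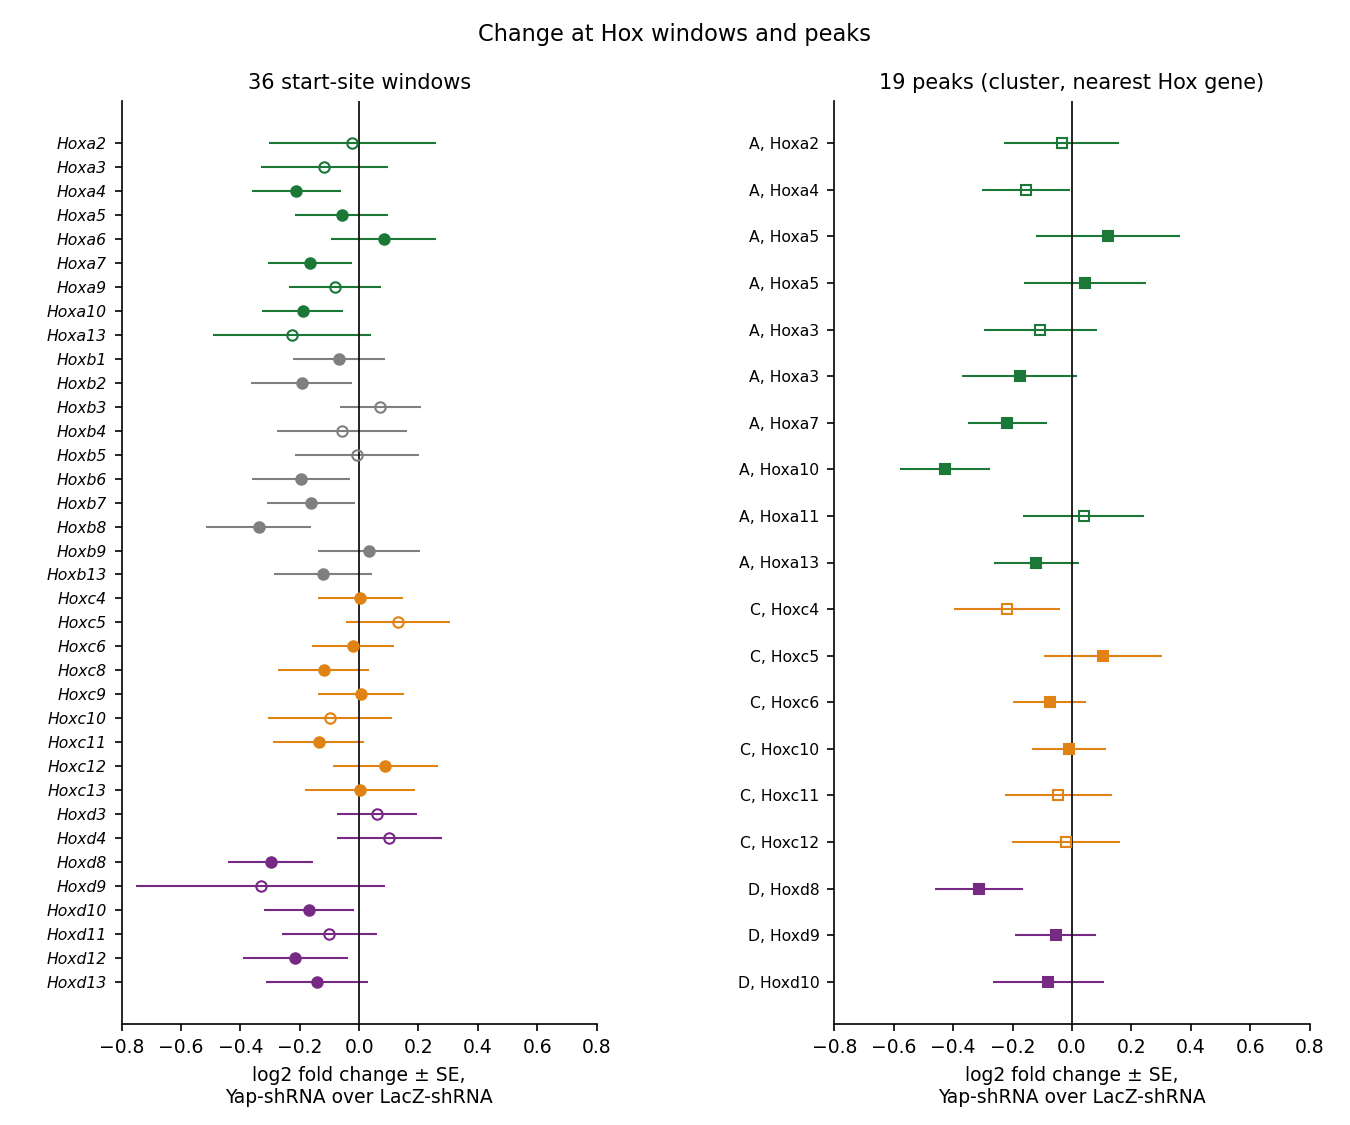
Log2 fold change of Yap-shRNA over LacZ-shRNA for the 36 Hox windows (left) and the 19 Hox cluster peaks (right), coloured by cluster. Error bars are the standard error (SE) derived from the test statistic. Open circles are windows that share bases and open squares are peaks over 1 kb from a Hox start. 26 windows and 15 peaks lie below 0, and 0 passed the test.

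The window with the smallest p was that of Hoxd8, whose per-sample levels are given above. Its mean was 11.6 CPM per kb in controls and 9.41 after Yap-shRNA, with log2 fold change -0.30 and SE 0.14 (p 0.0448 and adjusted p 0.946 in edgeR). Hoxb8 was next, with 4.81, 6.13 and 5.45 CPM per kb in LacZ-shRNA and 4.30, 4.85 and 3.62 in Yap-shRNA. Its log2 fold change of -0.34 (SE 0.18) had an edgeR p of 0.0632, and the groups overlapped by 1 pair of samples. Hoxa4 had -0.21 (SE 0.15, edgeR p 0.166). The Hoxa10 window held 8.16, 8.58 and 10.02 CPM per kb in LacZ-shRNA and 7.30, 8.46 and 7.82 in Yap-shRNA, with log2 fold change -0.19 and SE 0.14 (p 0.168, edgeR). Hoxd12 held 6.87, 8.17 and 8.20 in LacZ-shRNA and 5.45, 7.91 and 6.60 in Yap-shRNA, with log2 fold change -0.21 and SE 0.18 (p 0.231, edgeR). All 5 were lower in Yap-shRNA on average, and 4 of them had overlapping groups.

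By cluster the median log2 fold change was -0.12 in cluster A with 8 of 9 windows lower, -0.09 in cluster B with 8 of 10, 0.00 in cluster C with 4 of 9 and -0.16 in cluster D with 6 of 8. Differences between clusters were not tested. As a length-weighted mean of unshared windows, cluster D held 9.34, 9.64 and 9.62 CPM per kb in LacZ-shRNA and 7.88, 8.76 and 7.91 in Yap-shRNA, with the controls above. Cluster A held 8.63, 9.07 and 11.0 in LacZ-shRNA and 8.40, 9.05 and 8.77 in Yap-shRNA, with overlap, and cluster B held 6.01, 6.77 and 6.55 against 5.68, 6.01 and 5.69, with the lowest control and the highest Yap-shRNA sample level to 3 digits. Cluster C held 7.34, 9.17 and 8.92 against 7.74, 8.62 and 8.54, also with overlap. The separation in cluster D held only for its unshared windows, which include those of Hoxd8 and Hoxd10. Over all 8 windows cluster D held 5.27, 5.30 and 5.60 in LacZ-shRNA and 4.87, 5.37 and 4.98 in Yap-shRNA, with overlap.

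By the same edgeR quasi-likelihood test 0 of the 19 Hox cluster peaks were called, where 0.618% of all 36097 peaks were, and the lowest adjusted p was 0.290. At an unadjusted p under 0.05 there were 2 lower peaks, against a share of 5.31% of all peaks, and 0 higher, against 3.59%. Groups did not overlap in 1 lower peak, against 6.76% of all peaks, and in 0 higher, against 6.55%. DESeq2 gave an adjusted p to 9 of the 19 and called 0 of these 9, and at an unadjusted p under 0.05 it had 1 of 19, which was lower. Of the 19, 15 were lower and 4 higher, where 18214 of all 36097 peaks were lower. The median log2 fold change of the Hox peaks was -0.08, beside -0.00 over all peaks. It turned to 0.04 without LacZ-shRNA 3, and to 0.07 with library size alone as the scale, which moved the median of all peaks to 0.14.

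The peak with the smallest p covered an exon of Hoxa10, 135 bases from an annotated start (chr6:52233459-52234592). It held 20.3, 24.0 and 25.6 CPM per kb in LacZ-shRNA and 17.8, 18.1 and 16.3 in Yap-shRNA, so that all controls lay above all Yap-shRNA samples. With n = 3 a group, the mean and SD were 23.3 ± 2.7 for controls and 17.4 ± 0.95 for Yap-shRNA. The log2 fold change was -0.43 with SE 0.15 (p 0.00733 and adjusted p 0.290 in edgeR). Without LacZ-shRNA 3 the unadjusted p was 0.0698. The TCGTAAA match shown above lies near one edge of this peak. Its central 300 bases are printed, as the region with the smallest p, with CG in capitals (chr6:52233876-52234175, GRCm38, + strand, while Hoxa10 lies on the - strand).
Hoxa10 peak: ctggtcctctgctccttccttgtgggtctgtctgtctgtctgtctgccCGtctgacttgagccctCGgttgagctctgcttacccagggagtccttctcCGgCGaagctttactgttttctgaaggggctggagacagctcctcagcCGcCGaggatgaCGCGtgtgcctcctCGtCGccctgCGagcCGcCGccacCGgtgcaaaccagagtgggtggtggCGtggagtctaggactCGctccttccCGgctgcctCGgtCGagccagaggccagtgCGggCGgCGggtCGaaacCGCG

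This stretch held 25 CG dinucleotides. The Hoxd8 peak (chr2:74704532-74706024) had the next smallest p, with 23.7, 18.2 and 21.5 CPM per kb in LacZ-shRNA and 15.0, 20.6 and 15.8 in Yap-shRNA, and its log2 fold change was -0.31 with SE 0.15 (p 0.0392 and adjusted p 0.524 in edgeR). Yap-shRNA 2 lay inside the control range. The Hoxa7 and Hoxa4 peaks had -0.22 (SE 0.13) and -0.15 (SE 0.15), and the Hoxa4 peak (chr6:52188796-52189772) held 23.8, 24.8 and 28.8 CPM per kb in LacZ-shRNA and 24.6, 23.8 and 22.2 in Yap-shRNA. The remaining one of the 5 lay in an intron of Hoxc4 (chr15:103026919-103027733), with 19.2, 25.0 and 22.2 CPM per kb in LacZ-shRNA and 22.1, 16.2 and 18.3 in Yap-shRNA and a log2 fold change of -0.22 (SE 0.18). In these 3 peaks the groups overlapped.

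MicroRNA genes lie between Hox genes and repress Hox messages. Their mature 5p forms are shown (RefSeq, GRCm38.p6) because members of different clusters share a seed, bases 2 to 8, given in capitals.
miR-10a-5p, cluster B: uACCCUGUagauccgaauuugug
miR-10b-5p, cluster D: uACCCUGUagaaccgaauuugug
miR-196a-5p, clusters B and C: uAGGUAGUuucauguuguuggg
miR-196b-5p, cluster A: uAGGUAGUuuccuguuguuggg

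The windows of these genes stand around the hairpin and not around the start of the primary transcript. Mir196a-1 held 5.70, 8.97 and 6.72 CPM per kb in LacZ-shRNA and 6.31, 5.96 and 5.62 in Yap-shRNA. Mir196a-2, which makes the same mature sequence from cluster C, held 6.96, 4.96 and 7.97 in LacZ-shRNA and 7.89, 8.56 and 7.24 in Yap-shRNA. Both were unshared and their groups overlapped. Mir10a, Mir10b and Mir196b had 55.1%, 32.9% and 5.70% of their windows to themselves and were listed at 2.26, 2.05 and 0.662. With the long noncoding RNAs of the clusters 15 genes were measured, 1 with a peak, and 0 passed the threshold, with 10 lower and 5 higher and a median log2 fold change of -0.04. The smallest p was that of Hoxaas2, an antisense RNA of cluster A, with 4.04, 4.31 and 3.67 CPM per kb in LacZ-shRNA and 2.97, 3.04 and 3.04 in Yap-shRNA. All its controls lay above all Yap-shRNA samples, as in 4.79% of all windows. Its log2 fold change was -0.39 with SE 0.16 (p 0.0197 and adjusted p 0.946 in edgeR). Of its window 76.1% was its own, and ATAC-seq does not tell strands apart.

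All 9 TALE cofactors, the homeodomain partners of Hox proteins, were measured, 7 of them with a peak, at a median of 7.47 CPM per kb. Of these 0 passed the threshold (4 lower, 5 higher, median log2 fold change 0.02). Of 21 Polycomb and Trithorax genes 20 had a peak and 0 passed (8 lower, 13 higher, median 0.04). Cbx8 was highest at 25.9 CPM per kb, and Bmi1 had the smallest p, with 10.7, 11.7 and 13.1 in LacZ-shRNA and 9.49, 10.01 and 9.21 in Yap-shRNA. Its log2 fold change was -0.31 (edgeR adjusted p 0.946). All its controls lay above all Yap-shRNA samples, as in 4.79% of all windows.

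Of the genes next to the clusters 8 of 10 had a peak, led by Calcoco1 at 10.2 CPM per kb, and 0 passed the threshold (6 lower, 4 higher, median log2 fold change -0.05). Ttll6, beside cluster B, had the smallest p at 0.0494 in edgeR, with 7.66, 8.03 and 7.07 CPM per kb in LacZ-shRNA and 6.99, 5.43 and 5.38 in Yap-shRNA and no overlap. Groups did not overlap in 2 lower genes and 1 higher gene of this list, where the shares of all windows were 4.79% and 5.31%. Among limb identity factors, Tbx4, the hindlimb factor, was highest at 8.60 CPM per kb and had a peak, while Tbx5, its forelimb counterpart, was listed at 4.82 with 77.2% of its window its own, Pitx1 at 5.64 with 52.4%, and Isl1 at 4.68 with the smallest p of the list (0.0787), and these 3 had no peak. Of the 4, 0 passed, with 3 lower and 1 higher and a median log2 fold change of -0.14. As a comparison with other developmental genes, 30 homeobox genes of other lineages had a median of 6.16 CPM per kb, windows with shared bases included. Of the 30, 6 (20%) had a peak. None passed the threshold (20 lower, 10 higher, median log2 fold change -0.09). Beside this the median of the Hox windows was -0.10. En2 was highest at 8.86, and Gsx2 had the smallest p (0.0409, edgeR).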

How the data were processed

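ATAC-seq counts of 6 samples, 3 per group by their labels, were analysed at gene start windows and at peaks (GRCm38). Per the submitters' processing notes and methods, reads were aligned with BWA 0.7.17, sorted with SAMtools 1.8, peaks were called with MACS 1.4.2-1, and the authors deposited raw read counts per feature, made with featureCounts 1.5.0, after merging peaks found in at least 2 samples and removing rows with a mean under 10. The series' design text names cardiomyocytes, while the sample labels name limb muscle, and the labels were followed. Window extents were rebuilt from the annotation. Windows that share bases with another gene appear to have lost the reads there.

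Levels are counts over TMM-adjusted sample totals, per kb. The totals were taken over all windows for windows and over all peaks for peaks. Groups were compared by edgeR's quasi-likelihood test (edgeR 4.0.16, R 4.3.3) on all 49366 windows and, separately, all 36097 peaks, with Benjamini-Hochberg adjustment over the whole table and a threshold of 0.05. Positive log2 fold changes are higher in Yap-shRNA. The SE was derived as the absolute log2 fold change over the square root of the test's F statistic. Adjusted p-values across these samples measure only the spread between 3 pooled samples a group. The fit was tested first on simulated data with 200 changed features. A log2 change of 1 was recovered in 70.5% of changed windows and 64% of changed peaks, and one of 0.5 in 9.5% and 23%. Other settings tried were DESeq2 1.42.0, edgeR's likelihood-ratio test, voom from limma 3.58.1, other scalings, a mean count of at least 50, a GC offset, the replicate block and leaving out each sample. Counts differed between all pairs of libraries beyond sampling noise.

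Values by sample are given for the 2 highest windows or peaks and the lowest window of each cluster, and for the 5 smallest unadjusted p. From lists of cofactors, cluster RNAs, flanking genes, Polycomb and Trithorax genes, limb factors and other homeobox genes, the gene with the smallest p and the one with the highest level are named. Cell type marker lists are given by their levels and counts. Of the list genes Hotair, Hottip, Haglros, Evx1, Prac1, Lnp and Itgam were not matched, and the named gene of the cofactor list is not reported here. The members and lists were chosen with earlier results of these data known. Motifs were searched with pysam 0.24.0 in the peaks' GRCm38 sequence, and promoters and microRNAs came from RefSeq.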

Additional observations from a re-analysis of the deposited data

How the results depend on the processing

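Each alternative called 0 Hox windows and 0 Hox cluster peaks, with an adjusted p for all of them except in DESeq2 (12 of 36 windows and 9 of 19 peaks) and with a mean count of at least 50 (33 of 36 windows), and peak counts per cluster were the same without the flank. The planned ratio of all windows to cluster B was 1.158 for cluster A, 1.361 for cluster C and 0.9661 for cluster D. With windows that share no bases it was 1.499 for cluster A and 1.448 for cluster D, and scaled to unshared bases it was 1.443, 1.444 and 1.229 for clusters A, C and D, so the direction for cluster D depends on the shared windows. Leaving out 1 sample gave 1.129 to 1.178, 1.346 to 1.383 and 0.9542 to 0.9821. The order of the 36 windows by level also depended on shared bases. Scaled to unshared bases it had a Spearman's rho of 0.4999 with the order as listed.

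Leaving out 1 sample moved the median log2 fold change between -0.163 (without LacZ-shRNA 1) and -0.0160 (without LacZ-shRNA 3) for windows, and between -0.157 and 0.0358 (without LacZ-shRNA 3) for peaks. The lower windows at an unadjusted p under 0.05 numbered 0 to 5, with 5 without LacZ-shRNA 1 and 0 without LacZ-shRNA 2, LacZ-shRNA 3, Yap-shRNA 1 or Yap-shRNA 3, and 3 with the GC offset. The cause was not tested. The Hoxa10 peak kept log2 fold changes from -0.518 to -0.288, with adjusted p from 0.163 to 0.644.

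Pairing was examined by correlating LacZ-shRNA with Yap-shRNA samples. The group's mean log CPM was first subtracted for each feature, so the values describe departures from group means and not levels. Correlations of same-numbered samples were 0.191, -0.121 and 0.0923 over windows and 0.0155, -0.0931 and -0.139 over peaks. Those of differently numbered samples ran from -0.260 to 0.199 over windows and from -0.0354 to 0.137 over peaks. With 3 samples a group these values cannot settle whether samples were paired. With the replicate block 0 Hox features were called and the medians were -0.0854 and -0.0628. Over all features the block gave 13 calls among windows, against 11 without it, and 207 among peaks, against 223. Other settings gave 4 to 157 window calls (157 without LacZ-shRNA 1) and 94 to 447 peak calls (447 without LacZ-shRNA 3), with 33 and 378 in the likelihood-ratio test and 20 and 116 in DESeq2. Both of the shallowest libraries belong to the LacZ-shRNA group, and the Hoxd9 window holds as few as 5 counts in a sample.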
